A study of Mus musculus with 68 samples.

Results

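The genes described here are markers of neutrophils and the chemokines and cytokines that attract and activate these cells: S100a8, S100a9, Cxcr2, Csf3r, Cxcl1, Cxcl2, Cxcl5, Il1b and Lcn2. These 9 genes were chosen by name out of 18193 genes with a probe set annotated to them alone, and 11 of the 45101 probe sets of the array belong to them. Cxcl1 has 3 probe sets and each other gene has 1, and each gene was read from its probe set with the highest mean. The genes were followed over 56 of 68 arrays, those whose mean over the 18S ribosomal RNA control probe sets lay below 8. The 56 arrays come from 56 animals. Every level below is a deposited RMA value, read as log2, so that a step of 1 is a doubling.

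All samples are mammary tumours that arose spontaneously in mice carrying the polyoma middle T antigen (PyMT), a viral oncoprotein, under the MMTV promoter, which drives it in mammary epithelium. NZB mice were crossed with PyMT carriers and the offspring backcrossed to FVB, so each animal inherited its own mixture of NZB and FVB alleles. The labels give 1 group with no treated or tumour-free animals, and they do not give the animals' age. The titles differ in the animal number, which leaves a gap between 3891 and 4946, and in a suffix R on 8 of the 56 arrays, whose meaning is not given.

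Neutrophils are short-lived white blood cells that leave the bone marrow under the growth factor G-CSF, read by the receptor Csf3r, and move into tissue along gradients of the chemokines Cxcl1, Cxcl2 and Cxcl5, read by the receptor Cxcr2. Their cytoplasm is packed with S100a8 and S100a9, which pair to form calprotectin, and their granules hold antimicrobial proteins such as Lcn2. Interleukin 1 beta, encoded by Il1b, switches on the chemokine genes through NF-kB. In mammary tumours neutrophils can be a small part of the tissue, and epithelium can make S100a8, S100a9, Lcn2 and the chemokines too.

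The arrays fall into sets that share sharp level shifts of many probe sets and that are not groups of the study. Of the 56 arrays, 39 are in array set 1, 9 in array set 3 and 8 in array set 4. All 8 arrays with the suffix R are in array set 3, and all 8 arrays of set 4 have numbers from 4946 up. The 12 arrays left out form array set 2, with 18S means from 8.97 up against at most 6.84 in the 56. The tissue label was borne out by Krt8, a keratin of luminal epithelium, which lay between 11.90 and 12.94. The pieces also held other tissue in varying amounts: Acta1, actin of skeletal muscle, ran from 4.66 to 13.45 and Adipoq, a fat cell hormone, from 4.45 to 11.61. In bulk tissue, fewer cells of a type and less RNA per cell cannot be told apart.

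S100a9 and S100a8 varied more between tumours than nearly all other genes. Csf3r, Cxcl2 and the Cxcl1 probe set used had SDs between percentiles 54.89 and 64.6 of the genes tested. That probe set was the flattest of Cxcl1, with an SD of 0.24, and the others had SDs of 0.51 and 0.39. S100a9 had its lowest level at 3.88, its median at 6.51 and its highest at 10.02, a 70.5-fold range. Its SD of 1.39 lay at percentile 99.38 among the 12561 genes tested, whose median SD was 0.23. The highest tumours, of animals 3825, 3568 and 2703, were at 10.02, 9.96 and 9.84, and the lowest, of animals 3289, 3394 and 4971, at 3.88, 4.74 and 4.76. S100a8 ran from 7.45 over a median of 9.81 to 12.26, a 27.96-fold range, with an SD of 0.98 at percentile 98.33. The distance between both sides of the best split of the tumours (Ashman's D) was 3.09 for S100a9 and 2.55 for S100a8, at percentiles 87.68 and 34.61 of the genes tested, and both lay below the 4.5 used to separate array sets.

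The receptors were dimmer and flatter. Csf3r lay at 5.16, 5.77 and 6.31 at its lowest, median and highest, with an SD of 0.24. Cxcr2 lay at 3.69, 4.02 and 4.51, with an SD of 0.17. All 56 arrays had Cxcr2 below 5.42, the median of all values on these arrays, so it did not pass the brightness filter (a 95th percentile above that median) and its differences are hard to measure here. Il1b ranged from 5.38 over 6.26 to 7.04, with an SD of 0.35 and 55 arrays above 5.42.

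Among the chemokines, Cxcl1 was measured above 5.42 on all 56 arrays, between 6.38 and 7.57 with a median of 6.93 and an SD of 0.24. Cxcl2 lay between 2.63 and 3.79, with a median of 3.10 and an SD of 0.27, and Cxcl5 between 2.61 and 4.57, with a median of 3.38 and an SD of 0.49. Neither rose above 5.42 on any array, and both failed the filter, so that 6 of the 9 genes entered the tests across genes as responses. All 9 served as predictors. Lcn2, the lipocalin that binds bacterial siderophores, was bright and nearly flat, between 13.02 and 13.60 with a median of 13.30 and an SD of 0.14, close to the highest deposited value of any probe set, 14.57. Its SD lay at percentile 9.896 of the genes tested, and Cxcl5 lay at percentile 90.3.

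**Figure D1:**
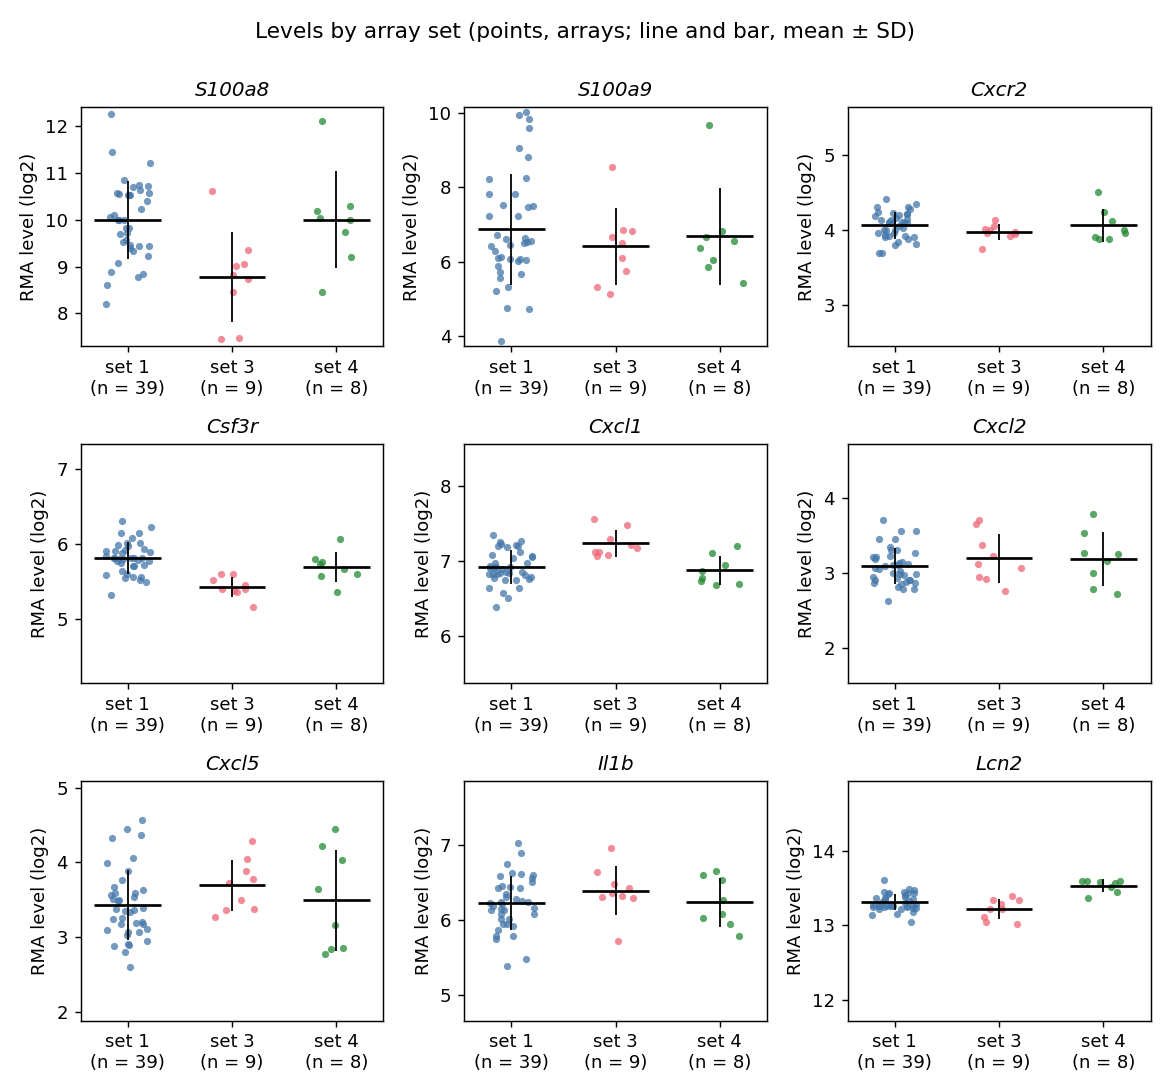
RMA level (log2, y axis) of each of the 9 genes on each of the 56 arrays (points), by array set (x axis), with the mean and SD of each set as a line and bar. S100a9 and S100a8 spread over 6.14 and 4.81 log2 units, Lcn2 over 0.58, and S100a8 and Csf3r are lower and Cxcl1 is higher in array set 3.

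Array sets took different shares of the spread. They accounted for 1.58% of the variance of S100a9, 2.95% of Cxcl2, 3.71% of Cxcl5, 3.57% of Cxcr2 and 3.05% of Il1b, against a median of 16.7% over the genes tested. They accounted for 40.3% in Lcn2, 34.3% in Csf3r, 25.2% in Cxcl1 and 21.2% in S100a8. S100a8 averaged 9.99 ± 0.84 (SD, n = 39) in set 1, 8.77 ± 0.96 (n = 9) in set 3 and 10 ± 1.04 (n = 8) in set 4. For the main relations of these 4 genes, values with the array set as a block (its set means taken out) are given as well.

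S100a8 and S100a9 rose and fell together. Their levels correlated at r = 0.726 over 56 arrays (Spearman's rho = 0.636, both with permutation p = 1e-05, the smallest that 100000 draws can give). The correlation was 0.708 without the 2 arrays farthest from the median of S100a8, and 0.765, 0.710 and 0.913 within array sets 1, 3 and 4. In the fit of all genes on S100a9 (limma, Benjamini-Hochberg adjusted p under 0.05, as in every such count below), S100a8 rose by 0.51 (SE 0.06) per unit of S100a9, with limma's adjusted p = 6.59e-07. It was the only one of the 5 other members tested that was called, where 0.159% of all 12560 genes were. The tumours highest in S100a9 were high in S100a8 as well, at 11.45, 10.74 and 12.26 for animals 3825, 3568 and 2703.

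Few genes went with S100a9, and neutrophil granule genes led them. The fit called 19 genes higher, or 0.151%, and 1 lower with S100a9. The 2 with the highest correlations were Ngp (r = 0.724) and Camp (r = 0.661), which encode proteins of the neutrophil's secondary granules, followed by Ifitm1 (r = 0.661), a membrane protein of the interferon-inducible family. Spearman's rho was 0.647 for Ngp and 0.446 for Camp. Within array sets 1, 3 and 4, r was 0.786, 0.0542 and 0.806 for Ngp, and 0.713, 0.154 and 0.648 for Camp. Ngp had its lowest level at 4.35, its median at 4.73 and its highest at 8.27. Most tumours lay near the lower end for Ngp. Of the 3 tumours highest in S100a9, those of animals 3568 and 3825 had the highest Ngp levels of all, at 8.27 and 7.70, and that of animal 2703 was at 5.27. Chac1 (r = 0.560) and Mfap3l (r = 0.555) completed the 5 nearest genes, and Tcaf1 was the gene called lower (r = -0.535).

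Of 35 listed neutrophil granule and surface genes, 27 had a probe set of their own and 17 passed the filter. With S100a9, 4 of the 17 rose and none fell: Ngp, Camp, the gelatinase Mmp9 (r = 0.554) and the formyl peptide receptor Fpr2 (r = 0.518). All 4 had medians below 5.42, at 4.73, 4.57, 5.23 and 5.14, and passed the filter through their higher arrays. Their means lay between 4.73 and 5.28, so a filter on the mean would have left them out. These calls rest on the arrays where the genes are high. The list's median r was 0.340, against -0.0103 over all genes tested. Padi4, which deiminates histones in neutrophils, had r = 0.467 and an adjusted p in limma of 0.0716. The granule enzymes Mpo, Elane, Ctsg and Mmp8 failed the filter, with Mpo between 3.47 and 5.81. None of 16 macrophage genes and none of 12 squamous epithelium genes was called with S100a9, although the latter had a median r of 0.407, above that of the neutrophil list. Saa3 (r = 0.527), an acute phase protein, and Ndrg1 (r = 0.501), a hypoxia-responsive gene, were called.

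The number of genes called with S100a9, 20 over the 56 arrays, moved with the tumours included. It was 293 without animals 3825 and 3568, 8 in array set 1 alone (0.0641%), 5 in numbers below 4000 and 3 with ranks in place of levels. With array set as a block 30 genes were called, 0.239% of those tested. Of 17 neutrophil genes 4 rose and of 12 squamous genes 1 did, with median r of 0.323 and 0.412.

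Genes of the neutrophil list and genes of skin-type epithelium both rose with S100a8. The fit on S100a8 called 1027 genes higher, or 8.18%, and 880 lower, together 15.2% of those tested, and 2 of the 5 other members tested: S100a9 (adjusted p = 9.89e-07 in limma) and Csf3r (adjusted p = 0.00421 in limma). Of the 17 neutrophil genes 10 rose and none fell, with a median r of 0.376 against 0.00916 over all genes. They were led by Prtn3 (r = 0.686), a serine protease of granules, Padi4 (r = 0.608), Mmp9 (r = 0.564) and Asprv1 (r = 0.543), a protease that is also made in the epidermis. Prtn3 ran from 6.38 over 8.25 to 10.21, while the granule enzymes Mpo, Elane and Ctsg reached at most 5.81, 5.41 and 5.87. The tumours highest in Prtn3, of animals 3572, 5000 and 4950, had Ngp at 7.45, 4.51 and 4.64. Which cells made Prtn3 was not tested. Padi4 and Mmp9 passed the filter with medians of 5.10 and 5.23. Of 12 squamous epithelium and skin genes 9 rose and none fell, with a median r of 0.494, including Sbsn (r = 0.668), the stress keratins Krt16 (r = 0.577) and Krt6a (r = 0.541), and Sprr1b (r = 0.547), a cornified envelope protein. Of 9 basal epithelium genes 4 rose, Krt14 (r = 0.674), Krt17, Lgals7 and Trp63, and 3 fell, the contractile or myoepithelial genes Myh11, Mylk and Oxtr.

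The squamous list moved with S100a8 across the tumours, and its part in the S100a8 results was not tested. The mean level of the list's 14 genes on the array lay between 5.14 and 9.11, with a median of 5.41. Krt14 ran from 7.92 over 9.17 to 11.17, and the tumour of animal 2703, with the highest S100a8, was at the top of Krt14 as well. Padi4 of the neutrophil list was highest in animals 2703 and 4980, at 7.95 and 7.31. These tumours were also the highest in Krt16, at 9.56 and 9.54, and in Mmp9, at 6.34 and 7.30. Their Ngp was at 5.27 and 4.93. The tumours highest in Ngp, of animals 3568 and 3825, had Padi4 at 4.98 and 5.39. The correlation of S100a8 with Krt14 was 0.598 without the 2 arrays farthest from the median of S100a8. With array set as a block 9 squamous and 7 neutrophil genes rose with S100a8, where 3.62% of all genes rose and 6.78% were called. In array set 1 alone 2 of 11 and 5 of 19 did, where 0.769% of all genes rose and 1.69% were called.

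Other genes near S100a8 were Id1 (r = 0.694), an inhibitor of basic helix-loop-helix factors, and Avpi1 (r = 0.665), and those farthest below were Emc1, Nfia and Etnk1, between r = -0.655 and r = -0.618. The acute phase genes Saa3 (r = 0.659), Saa2 (r = 0.558) and Saa1 (r = 0.527) and the receptor Tlr4 (r = 0.356) rose with S100a8, 4 of 11 in their list. Of 21 listed genes of neutrophil recruitment 5 rose and none fell: Il1rn (r = 0.546), the natural antagonist of interleukin 1, the complement receptor C5ar1 (r = 0.467), Alox5ap (r = 0.449), which serves leukotriene synthesis, and Zc3h12a and Tnfaip3, which restrain inflammatory signalling. With the block 3 recruitment and 3 acute phase genes rose, and in array set 1 alone 0 and 1 did. Of 16 macrophage genes 1 rose, Cd14 (r = 0.385).

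**Figure D2:**
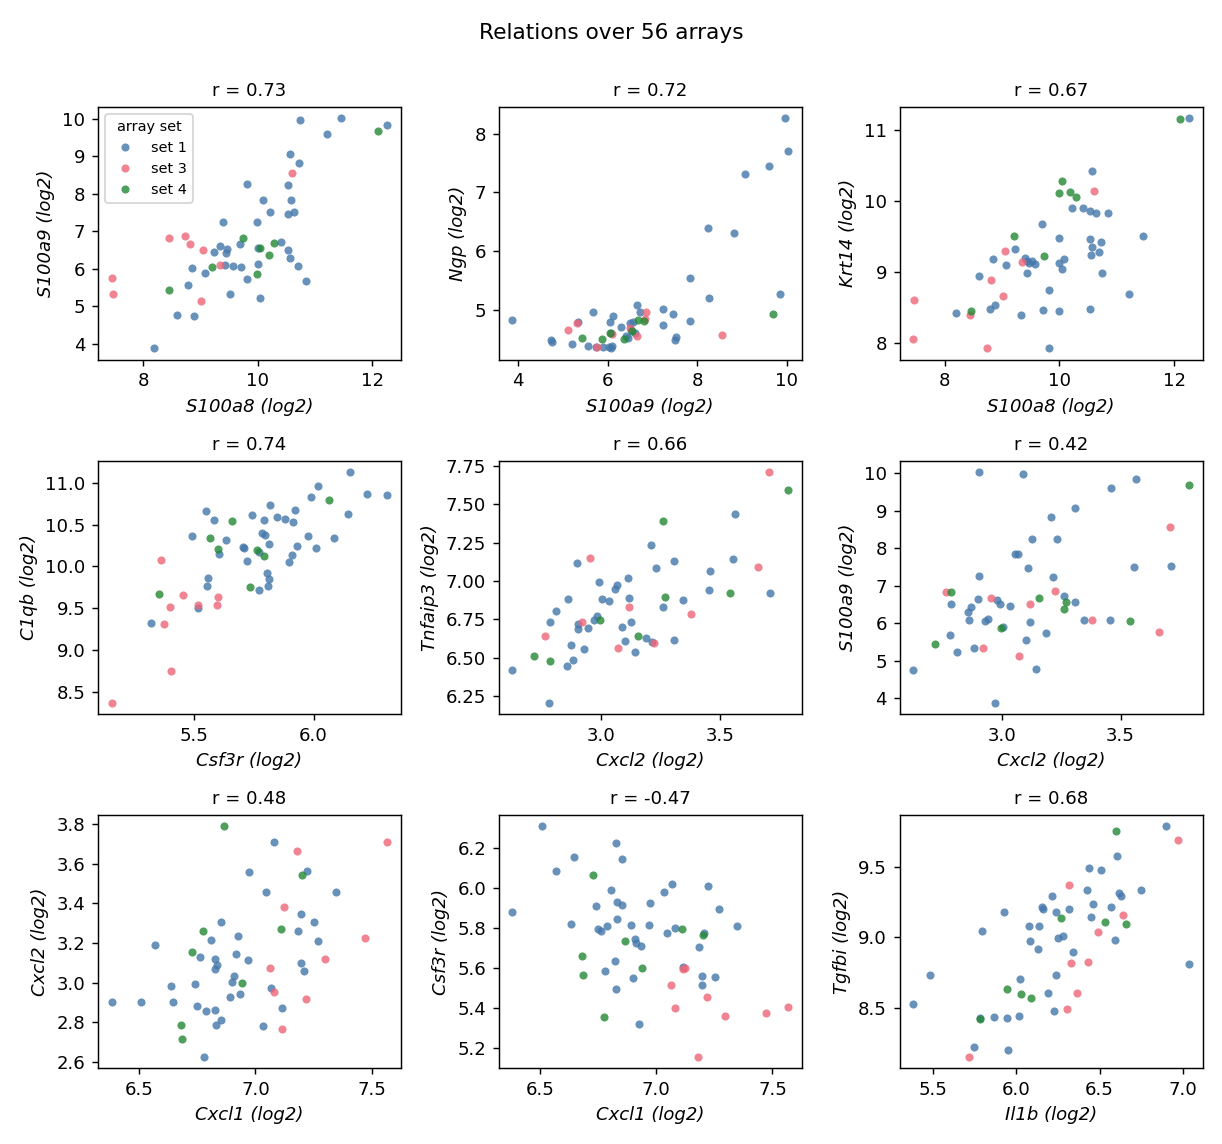
Level against level (log2 on both axes) for 9 pairs over the 56 arrays, coloured by array set, with Pearson's r above each panel. Most tumours lie near the lower end of Ngp and the high ones are high in S100a9, while C1qb rises with Csf3r along the whole range.

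Every tested macrophage gene rose with Csf3r, the G-CSF receptor. The fit on Csf3r called 3809 genes, 30.3% of those tested, and of 5 other members tested it called S100a8 higher (adjusted p = 0.00134 in limma) and Cxcl1 lower (adjusted p = 0.00275 in limma). Of all genes 15.8% were called higher. S100a9 had r = 0.309 with Csf3r (permutation p = 0.0209, rho = 0.300) and an adjusted p of 0.055 in limma. The 16 macrophage genes had a median r of 0.633 against 0.00783 over all genes. With array set as a block 14 rose, where 14.5% of all genes were called, and in array set 1 alone 13 did, where 6.94% were. The nearest were C1qb (r = 0.744) and C1qa (r = 0.731), subunits of complement C1q, Tyrobp (r = 0.728) and Fcer1g (r = 0.722), adaptors of myeloid receptors. The highest correlations among all genes were Fcgr3 (r = 0.751), an IgG receptor of myeloid cells, and Apoe (r = 0.745), a lipid carrier made by macrophages. The mean level of the macrophage list's 17 genes on the array lay between 7.61 and 9.50, with a median of 8.73, and its part in the Csf3r results was not tested.

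Of the 17 neutrophil genes 9 rose with Csf3r, led by Lrg1 (r = 0.574), Hp (r = 0.506) and Fpr2 (r = 0.499). The first 2 encode plasma proteins that neutrophils also store in granules. Blocked by array set, 8 neutrophil genes rose, but in array set 1 alone 1 of 19 did. Stfa3, Asprv1, Pglyrp1 and Prtn3 were not called, with r between 0.0155 and 0.173. Of 21 recruitment genes 11 rose, among them C5ar1 (r = 0.647), Alox5ap (r = 0.613) and Ackr1 (r = 0.611), the scavenging chemokine receptor of venules and red cells, and 3 fell, Ptgs2, Nfkbiz and Il1rap. With the block 10 recruitment genes rose and 1 fell, and in array set 1 alone 4 rose and 1 fell. Lists of other tissue rose too: 4 of 5 mast cell, 5 of 7 T and NK cell, 4 of 5 B cell, 10 of 13 fibroblast, 7 of 9 endothelial, 6 of 7 adipocyte and 8 of 10 muscle genes. Blocked by array set, these counts were 4, 6, 3, 9, 5, 3 and 3, and in array set 1 alone they were 4, 4, 2, 1, 1, 0 of 8 and 0. The part of these lists was not tested either. Enah, Arhgef39 and Lmo4 fell most closely with Csf3r, between r = -0.683 and r = -0.668.

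Csf3r and S100a8 correlated at r = 0.489 (permutation p = 0.00018, rho = 0.475), 0.382 without the 2 arrays farthest from the median of Csf3r. Within array sets the value was 0.324, and with the block the adjusted p in limma was 0.0747. Both genes also fell with the 3' minus 5' difference of the Gapdh control probe sets, a measure of RNA quality, at r = -0.323 and r = -0.327 over all 56 arrays, and at 0.197 and -0.0834 with set means taken out.

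Cxcr2 and Csf3r correlated at r = 0.410 (permutation p = 0.00178, rho = 0.405), 0.375 without the 2 arrays farthest from the median of Cxcr2 and 0.383 within array sets. In the fit on Cxcr2, which called 290 genes or 2.31%, none of the 6 other members tested was called. Csf3r was the 1 with an unadjusted p under 0.05, and its adjusted p in limma was 0.0567. Cxcr2 was nearest to Tacr2 (r = 0.582), a tachykinin receptor, and Spn (r = 0.571), the leukocyte sialoglycoprotein CD43, and none of 17 neutrophil genes was called. Osm (r = 0.484), a cytokine made by neutrophils among other leukocytes, was the 1 recruitment gene called. Cxcr2 had r = 0.0832 with S100a9 and 0.160 with S100a8, with permutation p = 0.541 and p = 0.238.

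**Figure D3:**
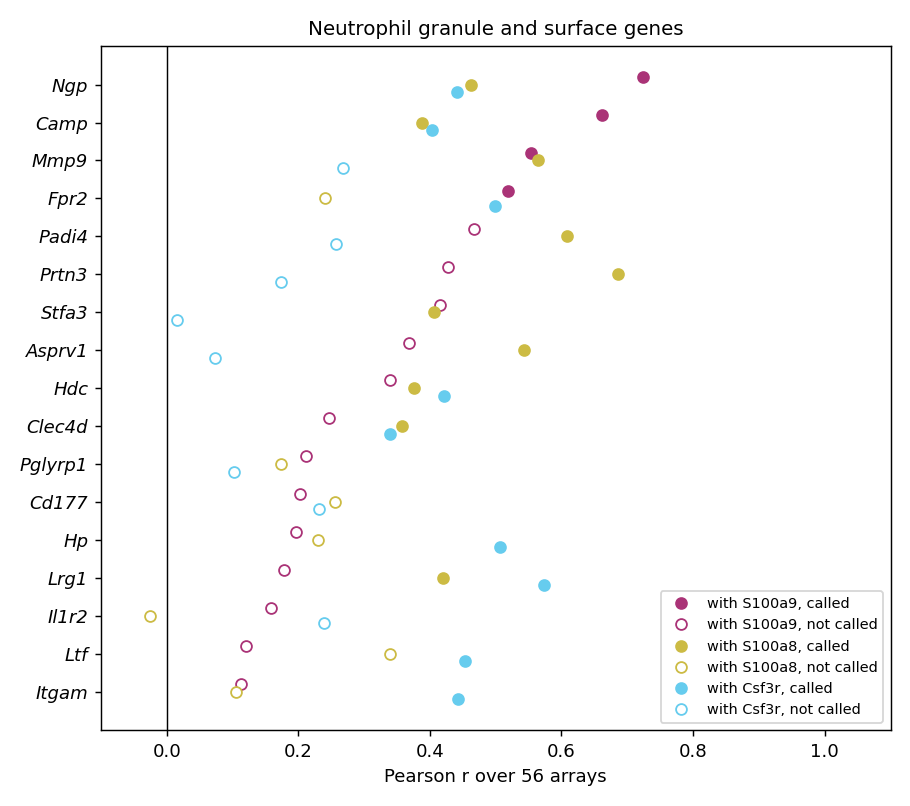
Pearson's r over 56 arrays (x axis) of each of the 17 tested neutrophil granule and surface genes (y axis) with S100a9, S100a8 and Csf3r, filled where called by limma. The 4 genes called with S100a9 are Ngp, Camp, Mmp9 and Fpr2, 10 are called with S100a8 and 9 with Csf3r.

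Macrophage genes rose with Il1b, the inducer. The fit on Il1b called 249 genes, 1.98% of those tested, with 1.57% higher. Of the 5 other members tested limma called none, and 0 had an unadjusted p under 0.05. Its r was 0.127 with S100a9 and 0.0900 with S100a8, with permutation p = 0.351 and p = 0.511. Of 16 macrophage genes 6 rose, among them the lysosomal protease Ctss (r = 0.512), Fcer1g (r = 0.498) and Csf1r (r = 0.475), the receptor that macrophages depend on, and 13 rose with array set as a block, where 3.97% of all genes were called. The macrophage list's part in the Il1b results was not tested. The nearest gene was Tgfbi (r = 0.679), a matrix protein made by macrophages and other cells, followed by Cd72 (r = 0.645), Tnfsf13b (r = 0.635), Nsg1 and Ikzf2. Il1r1, the receptor of interleukin 1, rose (r = 0.588), as did Nfkbia (r = 0.447), a target and inhibitor of NF-kB, while Usp24 had the lowest value (r = -0.587). Il1b and Csf3r had r = 0.260 (permutation p = 0.0533, rho = 0.235) over all arrays and 0.449 within array sets, where limma's adjusted p in the fit on Il1b was 0.0253.

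The chemokine genes Cxcl1 and Cxcl2 are neighbours on chromosome 5, and their promoters are shown because both hold matches to an NF-kB type motif and because their levels moved together. The 250 bases before each start are printed 5' to 3' from RefSeq (GRCm38.p6), Cxcl1 at chr5:90890995-90891244 and Cxcl2 at chr5:90903649-90903898, both on the plus strand, with matches to the motif searched, GGG, any 2 bases and then TTTCC, on either strand in capitals.
Cxcl1: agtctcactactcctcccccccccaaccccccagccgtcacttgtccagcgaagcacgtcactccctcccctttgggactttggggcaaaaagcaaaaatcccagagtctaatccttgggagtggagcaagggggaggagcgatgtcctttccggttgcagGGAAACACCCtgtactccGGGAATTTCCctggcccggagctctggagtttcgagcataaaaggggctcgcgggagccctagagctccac
Cxcl2: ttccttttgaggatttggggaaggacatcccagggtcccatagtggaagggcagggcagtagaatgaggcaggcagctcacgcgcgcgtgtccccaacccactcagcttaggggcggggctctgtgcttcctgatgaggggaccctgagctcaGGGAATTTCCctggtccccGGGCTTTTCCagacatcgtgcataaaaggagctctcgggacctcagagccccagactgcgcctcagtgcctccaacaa
Cxcl1 has a match on the opposite strand 89 to 80 bases before the start and another on its own strand 71 to 62 bases before it. Cxcl2 has matches 97 to 88 and 78 to 69 bases before its start. No 2 of these matches overlap. Of 32851 promoter windows of this length, 464 or 1.41% held at least 1 match and 8 or 0.0244% at least 2. Of the 9 genes 8 had a window, and 2 held a match, Cxcl1 and Cxcl2. A match is a stretch of letters and not a measured binding site.

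All 3 pairs of chemokines had positive correlations. Cxcl1 and Cxcl2 correlated at r = 0.476 (permutation p = 0.00015, rho = 0.475), 0.408 without the 2 arrays farthest from the median of Cxcl1, and 0.497, 0.516 and 0.564 within array sets 1, 3 and 4. In the fit on Cxcl2, which called 403 genes or 3.21%, 2 of the 6 members tested were called, Cxcl1 (adjusted p = 0.0163 in limma) and S100a9 (adjusted p = 0.0392 in limma). Cxcl2 and Cxcl5 had r = 0.420 (permutation p = 0.00118, rho = 0.356), 0.377 without the 2 arrays farthest from the median of Cxcl2. Cxcl1 and Cxcl5 had r = 0.358 (permutation p = 0.00621, rho = 0.417), 0.370 without the 2 arrays farthest from the median of Cxcl1, but -0.392 among the 9 arrays of set 3. In the fit on Cxcl5, which called 92 genes or 0.732%, limma called none of the 6 members tested, and 3 had an unadjusted p under 0.05. In array set 1 alone limma called 2 genes with Cxcl2 (0.016%) and 3 with Cxcl5 (0.024%) of 12490 tested, and no member among them, with 4 and 3 members at an unadjusted p under 0.05.

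Hypoxia genes rose with each of the 3 chemokines, and some rose with S100a8 as well. Of 13 hypoxia and glycolysis genes 8 rose with Cxcl1, 11 with Cxcl2 and 6 with Cxcl5, where 6.04%, 2.32% and 0.478% of all genes rose. None fell, and the median r was 0.411 for Cxcl1 and 0.505 for Cxcl2 against -0.0784 and -0.0192 over all genes. With Cxcl1, which had 3005 genes called or 23.9%, they included Car9 (r = 0.553), a carbonic anhydrase, Vegfa (r = 0.497), the vessel growth factor, and Adm (r = 0.489), a vasodilator peptide. With Cxcl2 they included Ankrd37 (r = 0.604), Pgk1 (r = 0.592), Vegfa (r = 0.568) and Bnip3 (r = 0.559). In array set 1 alone 8 of these genes rose with Cxcl1, where 4.8% of all genes were called, and none with Cxcl2 or Cxcl5. With S100a8, 5 of the 13 rose and 0 fell, where 8.18% of all genes rose. The count was 8 with array set as a block, as for Cxcl1, and 4 in array set 1 alone, where 3.62% and 0.769% of all genes rose with S100a8. Of 21 recruitment genes 6 rose and 4 fell with Cxcl1, 2 rose with Cxcl2 and 3 with Cxcl5. Tnfaip3 and Nfkbiz, induced by and feeding back on NF-kB, rose with all 3, at r = 0.338 and 0.514 with Cxcl1, 0.664 and 0.643 with Cxcl2, and 0.492 and 0.528 with Cxcl5. Ptgs2, the inducible cyclooxygenase, rose with Cxcl1 (r = 0.583) and with Cxcl5 (r = 0.485).

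Cxcl2 was further nearest to Hs6st2 (r = 0.669), a heparan sulphate sulphotransferase, and rose with 6 of 12 squamous genes, among them Krt16 (r = 0.565), and with Slpi (r = 0.552), an epithelial protease inhibitor. The neutrophil genes Stfa3 (r = 0.493) and Asprv1 (r = 0.421) rose with it, 2 of 17. Cxcl5 was nearest to Moxd1 (r = 0.588), Lgals3 (r = 0.578), a galectin, Nebl, Alcam and Igfbp3, and rose with Slpi (r = 0.518). Pgp, Sigirr and Ptpn18 fell most closely with Cxcl2 and Dhrs4, Pecr and Tdrp with Cxcl5.

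Macrophage, fat and stromal genes fell with Cxcl1. Of 16 macrophage genes 13 fell with Cxcl1 and none rose (median r -0.479), led by C1qb (r = -0.633), and all 7 adipocyte genes fell, among them Plin4 (r = -0.544) and Pparg (r = -0.537), the master regulator of fat cells. Also lower were 4 of 5 mast cell, 9 of 13 fibroblast, 6 of 9 endothelial and 4 of 17 neutrophil genes, where 17.9% of all genes were. Blocked by array set, 13 macrophage, all 7 adipocyte, 4 mast cell, 8 fibroblast and 2 endothelial genes fell, and none of the neutrophil genes, where 9.08% of all genes were called. In array set 1 alone 12 macrophage, 6 of 8 adipocyte, 4 mast cell, 6 fibroblast, 1 endothelial and 0 of 19 neutrophil genes fell. The nearest genes were Flt1 (r = 0.661), a Vegf receptor, Ccdc22 (r = 0.651) and Vldlr (r = 0.648), and the farthest below Abhd12 (r = -0.759), Anapc15 and Tmc5. The part of these tissue lists in the Cxcl1 results was not tested.

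The 3 probe sets of Cxcl1 did not carry the same values. The 1 used had an SD of 0.24 and correlated at r = 0.623 and r = 0.796 with the others, whose SDs were 0.51 and 0.39. Read from the most variable probe set, Cxcl1 had r = 0.678 with Cxcl2, 10 of 13 hypoxia genes rose, and 13 of 16 macrophage and 7 of 7 adipocyte genes fell, where 10.1% of all genes were called. Read from the third, these values were 0.566, 9, 12 and 7, where 30.7% were. Other values changed more. The nearest gene was Igfbp3 (r = 0.68) with the most variable probe set and Vldlr (r = 0.737) with the third, with Flt1 at 0.513 and 0.586. Of 10 muscle genes 10 fell with the most variable probe set, 5 with the third and 0 with the 1 used. These readings were added after the values of the chosen probe set were seen.

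**Figure D4:**
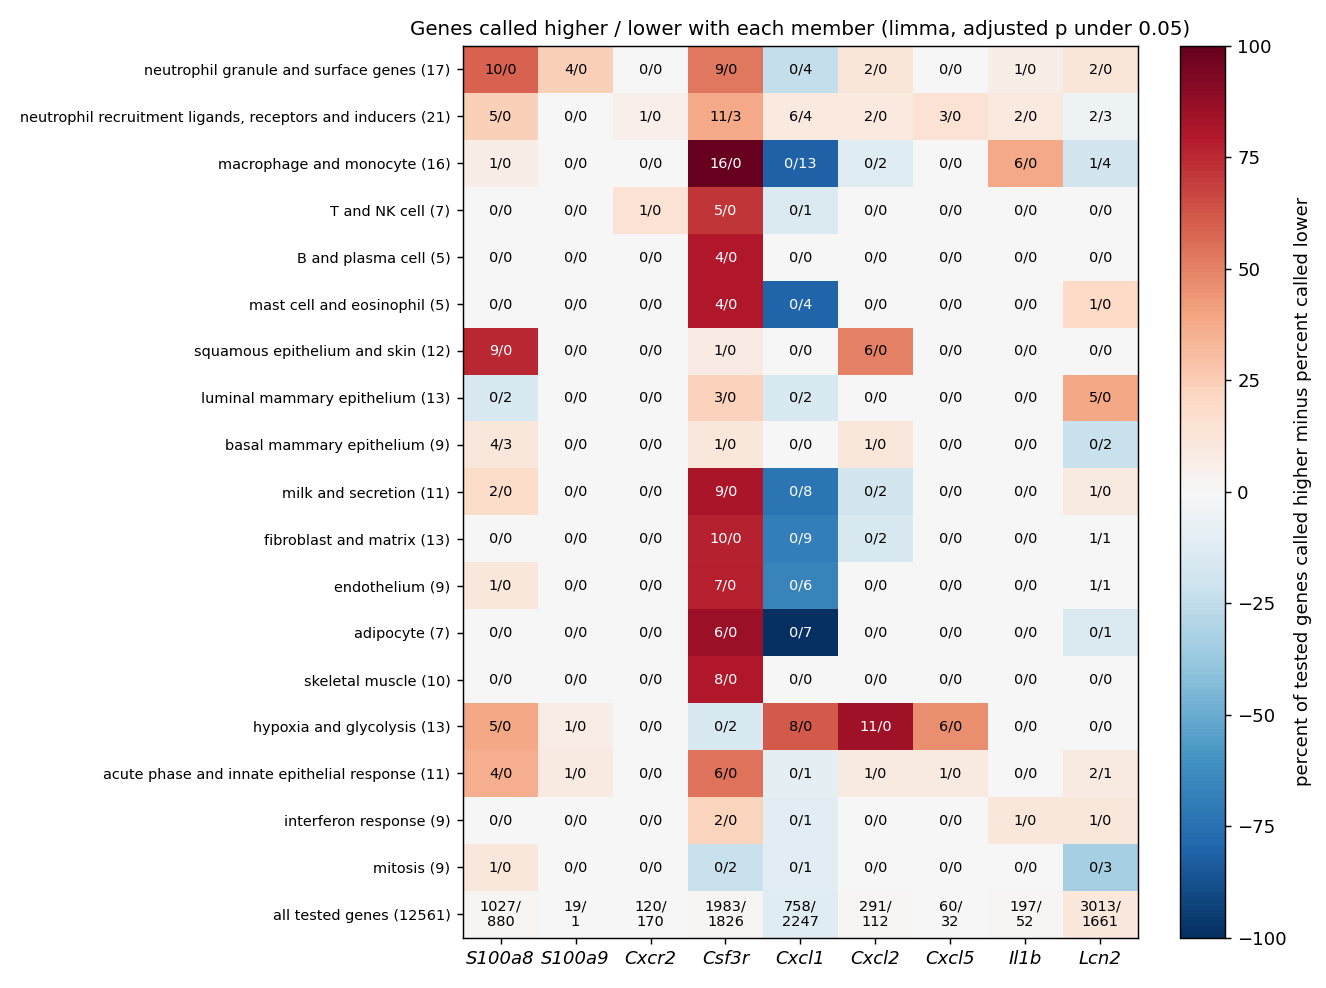
Number of genes called higher / lower (limma, adjusted p under 0.05) with each of the 9 genes (x axis) in each list (y axis, number of tested genes in brackets), coloured by the percent called higher minus the percent called lower. Macrophage genes are 16/0 with Csf3r and 0/13 with Cxcl1, hypoxia genes 11/0 with Cxcl2, and squamous genes 9/0 with S100a8.

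Cxcl2 and Cxcl5 had positive correlations with S100a8 and S100a9, while Cxcl1 passed the permutation test with neither. Whether the chemokines differ in this was not tested. Of the 12 pairs of a chemokine with S100a8, S100a9, Cxcr2 or Csf3r, 5 had r above 0, and the median r was -0.0434. Cxcl2 and S100a9 had r = 0.419 (permutation p = 0.00133, rho = 0.376), 0.353 without the 2 arrays farthest from the median of Cxcl2, and 0.439, 0.356 and 0.678 within array sets 1, 3 and 4. Cxcl5 and S100a9 had r = 0.382 (permutation p = 0.00364, rho = 0.350), 0.302 without the 2 arrays farthest from the median of Cxcl5, and 0.402, 0.196 and 0.625 within the sets. The tumour of animal 2703, among the 3 highest in S100a9, was the highest of all in Cxcl5 at 4.57, while animals 3825 and 3568 lay at 3.12 and 3.26, below the median of 3.38. With S100a8, Cxcl2 had r = 0.318 and Cxcl5 r = 0.305, with permutation p = 0.0168 and p = 0.0218. Removing the set means gave 0.428 and 0.450, and leaving out the 2 arrays farthest from each chemokine's median gave 0.209 and 0.1997.

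Adjusted over all genes without array set as a block, the positive relation that passed was that of Cxcl2 with S100a9 in the fit on Cxcl2. S100a9 rose by 2.13 (SE 0.61) per unit of Cxcl2, and limma's adjusted p was 0.0233 with array set as a block, where 4.2% of all genes were called, and 0.294 in array set 1 alone. S100a8 had an adjusted p of 0.1496 in the fit on Cxcl2 and of 0.0339 with the block. For Cxcl5 with S100a9 limma's adjusted p was 0.117, and 0.0727 with the block, where 0.868% were. In the fits on the neutrophil markers, the chemokine that could be tested was Cxcl1, and 1 of its 4 pairs was called, the negative one with Csf3r. The fit on Csf3r called 30.3% of all genes, and 14.5% lower. Without the brightness filter and without the block all 12 pairs were tested and 1 was called, the same pair. There limma's adjusted p was 0.114 for Cxcl2 and 0.169 for Cxcl5 in the fit on S100a9, and 0.0968 and 0.112 in the fit on S100a8. With the block and no filter these were 0.0807 and 0.108, and 0.0291 and 0.0172. Cxcl2 and Cxcl5 were then called with S100a8, and Cxcl1 with Csf3r (0.144) was not. In array set 1 alone with no filter, Cxcl2 and Cxcl5 had 0.243 and 0.109 in limma's fit on S100a8. With the filter and the block, 6.78% of all genes were called with S100a8. Cxcl1 with Csf3r had r = -0.468 (permutation p = 0.00024, rho = -0.417), -0.439 without the 2 arrays farthest from the median of Cxcl1. It was -0.360, -0.314 and 0.174 within array sets 1, 3 and 4, and limma's adjusted p rose to 0.124 with the block. Cxcl1 had r = 0.0540 with S100a9 and -0.0789 with S100a8, with permutation p = 0.691 and p = 0.563. With set means taken out these were 0.126 and 0.196, and read from the most variable Cxcl1 probe set they were 0.199 and 0.175, so the sign with S100a8 turned. Over the 56 arrays no chemokine had r above 0 with Cxcr2, and the values lay between -0.156 and -0.0319.

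**Figure D5:**
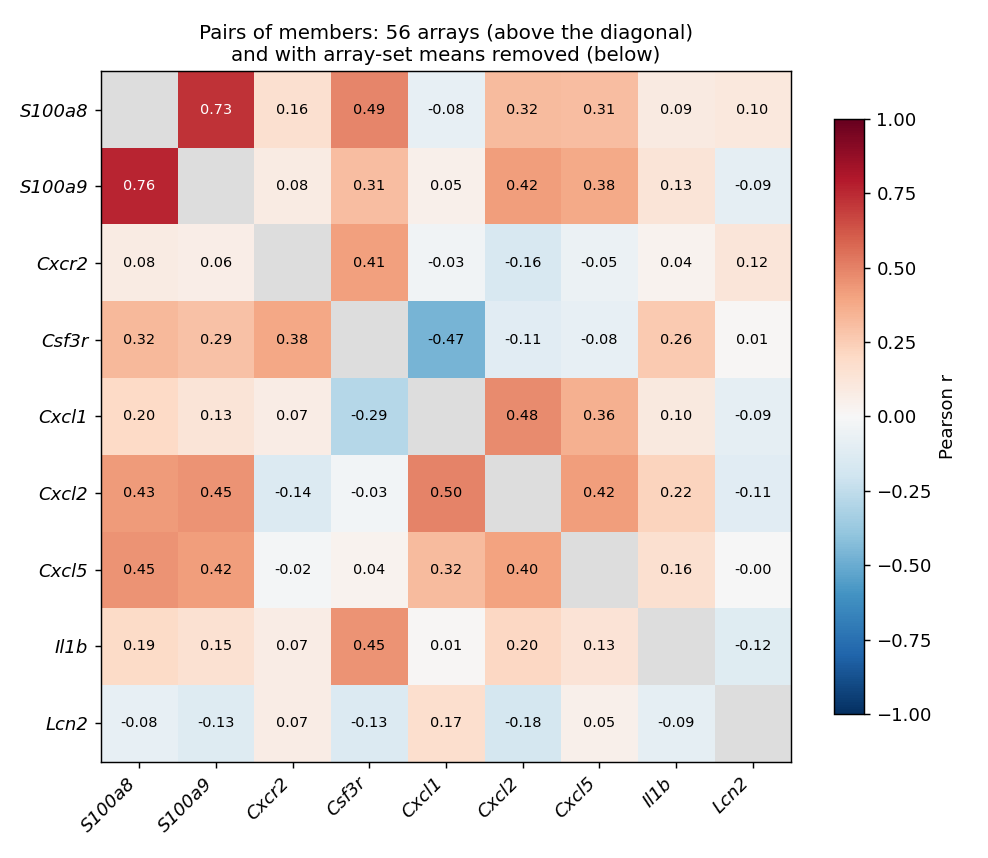
Pearson's r of each pair of the 9 genes over 56 arrays (above the diagonal) and with array-set means taken out (below). S100a8 with S100a9 is the highest at 0.73, the chemokines share positive values, and Cxcl1 with Csf3r is the lowest at -0.47 and -0.29.

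Over all 36 pairs of members 24 had r above 0, with a median of 0.101. With set means taken out 27 did, with a median of 0.130.

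Over the 56 arrays Lcn2 correlated with none of the other 8 genes at more than 0.123 in size, and many genes of chromosome 11 rose with it. None of 5 other members tested was called with Lcn2 by limma, and 0 had an unadjusted p under 0.05, although 4674 genes were, 37.2% of those tested, and its r was -0.0894 with S100a9 and 0.103 with S100a8. With set means taken out its r with the other 8 lay between -0.176, with Cxcl2, and 0.171, with Cxcl1. In array set 1 alone it had r = 0.298 with Cxcl1 and -0.272 with Csf3r, and among the 8 arrays of set 4 r = -0.886 with S100a9. The nearest genes were Ube2z (r = 0.834), a ubiquitin-conjugating enzyme, Gabarap (r = 0.816) and Sqstm1 (r = 0.794), both of autophagy, Pgap3 (r = 0.801) and Dbnl (r = 0.785). Of 13 luminal genes 5 rose, Krt18 (r = 0.742), Erbb2 (r = 0.723), Epcam, Krt8 and Krt19, where 24% of all genes rose. Of 9 mitosis genes 3 fell, Mki67 (r = -0.431), Cdc20 and Kif11, where 13.2% of all genes fell. Whether these counts differ from those shares was not tested. With the block 3 luminal genes rose and 5 mitosis genes fell, where 7.46% of all genes rose and 4.28% fell. In array set 1 alone the counts were also 3 and 5, where 7.05% rose and 6.74% fell. There the luminal list's median r was -0.0824. Qrsl1 (r = -0.799), Tmem109 and Bms1 lay farthest below. Of 17 neutrophil genes 2 rose, Lrg1 (r = 0.452) and Ltf (r = 0.332), the iron-binding protein of secondary granules and of milk, and 1 did with the block.

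Ube2z, Gabarap, Sqstm1 and Erbb2 lie on chromosome 11, and Lcn2 on chromosome 2, so calls were counted by chromosome after these values were seen. On chromosome 11, 489 of 1076 genes rose with Lcn2, or 45.4%, against 24% of all genes, and on chromosome 17 231 of 621 did, or 37.2%. On chromosomes 7 and 15 the shares were 32.8% and 29.9%, and on chromosome 2 the share was 23.8%. With array set as a block the shares were 32.9% on chromosome 11 and 17.4% on chromosome 17, against 7.46% of all genes, and in array set 1 alone 26.7% and 19.1%, against 7.05%. For chromosomes 7 and 15 they were 6.89% and 10.5% with the block, and 6.6% and 11.1% in array set 1 alone. Ube2z, Gabarap, Sqstm1 and Erbb2 had r with Lcn2 between 0.692 and 0.768 in array set 1. Among the 8 arrays of set 4 their r was 0.344, -0.0827, 0.197 and 0.0914. The median r of chromosome 11 genes with the other 8 members lay between -0.046 and 0.0366. Lcn2 fell with the 3' minus 5' difference of the Actb control probe sets (r = -0.432, permutation p = 0.0013, rho = -0.392), and at -0.157 with set means taken out. The part of RNA quality in the Lcn2 results was not tested.

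Limma called Lcn2 by animal number, where 21.7% of all genes were called. By the suffix R it called Cxcl1, Csf3r, S100a8 and Lcn2, where 32.8% of all genes were. With array set as a block no gene was called in either comparison, member or other. Between 15 tumours with numbers from 4946 up and 41 with numbers up to 3891, limma called 1 of 6 members tested, where 21.7% of all genes were called: Lcn2 was at 13.43 ± 0.13 (SD) against 13.29 ± 0.12, a difference of 0.15 (SE 0.04, adjusted p = 0.0056). The ranges overlapped, at 13.22 to 13.59 and 13.02 to 13.60. S100a9 was at 6.59 ± 1.16 against 6.85 ± 1.48 (adjusted p = 0.705 in limma). The slope on S100a9 differed between the number ranges for none of the 5 members tested (adjusted p = 0.9999 in limma, with 0% of all genes called and 176 at an unadjusted p under 0.05), and the smallest unadjusted p of a member was 0.32.

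Between 8 tumours with the suffix R and 48 without, 4 of 6 members tested were called, where 32.8% of all genes were. Cxcl1 was higher, at 7.25 ± 0.18 (SD) against 6.92 ± 0.22, a difference of 0.33 (SE 0.08, adjusted p = 0.000941 in limma). Csf3r was lower, at 5.41 ± 0.13 against 5.79 ± 0.21 (adjusted p = 0.000103 in limma), as was S100a8, at 8.81 ± 1.02 against 9.96 ± 0.88 (adjusted p = 0.0063 in limma). Lcn2 was at 13.20 ± 0.12 against 13.35 ± 0.13, a difference of -0.15 (SE 0.05, adjusted p = 0.02 in limma). All 4 ranges overlapped. With array set as a block limma called 0 of 12561 genes in either comparison, and 868 by animal number and 162 by suffix had an unadjusted p under 0.05, with no member among them. There the S100a8 difference for the suffix was 0.36 (SE 0.92), since a single array without the suffix shares array set 3 with the 8 that carry it, and the suffix cannot be told apart from the array set beyond that 1 array.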

How the data were processed

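Total RNA of mammary tumours from 66 animals was measured on 68 Affymetrix arrays. The authors deposited log2 values made with RMA, per the submitters' processing notes, which give no version. The log2 scale was read from the values, which run from 1.68 to 14.57. RMA subtracts a modelled background, equalises the arrays and gives 1 value per probe set. The raw intensities were not used here, so depth, meaning signal over background, is known only from the levels, and the number of arrays limits the precision.

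Probe sets were named through the platform annotation. It gives 34945 probe sets 1 gene and 932 several, and 9160 are not listed. Of the first, 34741 were found in the RefSeq table (GRCm38.p6). A gene was tested if its 95th percentile over the 56 arrays exceeded their median value (5.42), which left 12561 genes. A gene that is low on most arrays can pass this filter through a few high ones. Cxcl2, Cxcl5 and Cxcr2 failed this filter, so 4 of the 12 chemokine and neutrophil pairs could be called in the planned direction.

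All tested genes were fitted on each member with limma 3.58.1 (R 4.3.3), with Benjamini-Hochberg adjustment over all genes and a threshold of 0.05. Single pairs had two-sided permutation tests with 100000 draws (scipy 1.17.1). The 36 pairs carry no adjusted p of their own. Array sets came from sharp splits of the arrays (Ashman's D above 4.5) that 20 or more probe sets from 10 or more chromosomes had in common. Figures used matplotlib 3.10.9. Fits were tested on simulated data. The 56 samples used are separate animals by number, each genetically distinct, so no animal is counted more than once. Fits without the block and all permutation tests carry no term for the array set. Their p-values measure a spread between arrays that mixes array-set shifts with differences between animals.

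The members, lists and tests were chosen with earlier results of these data known. Genes named are the members, the neutrophil and recruitment lists, for each member the 5 genes with the highest and 3 with the lowest r, and up to 4 leading and 2 lowest genes of other lists.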

Additional observations from a re-analysis of the deposited data

How the results depend on the processing

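The count of called chemokine and neutrophil pairs was 1, Cxcl1 with Csf3r, in a fit that called 14.5% of all genes lower. It was 0 with array set as a block, in array set 1 alone, without the suffix R, over all animals with array set as a block, and with the probe set of largest SD, where r was -0.289, -0.360, -0.275, -0.155 and -0.297. It was 1 under the 6 other alternatives. Except without the filter, these counts cover the 4 pairs that could be tested. With the block and no filter together, a setting outside these alternatives, Cxcl2 and Cxcl5 were called in the fit on S100a8. The single member called by animal number, Lcn2, fell to 0 with array set as a block, in array set 1 alone and over all animals with the block. The 4 members called by the suffix R fell to 0 with array set as a block and over all animals with the block. With array set as a block over the 56 arrays no gene at all was called in either comparison. S100a8 was the 1 member called with S100a9 under every alternative run, and the slope difference by number range called 0 under every alternative run. Under these alternatives no called r changed sign, but Cxcl1 with Csf3r was 0.174 within array set 4, and the S100a8 difference by suffix R, -1.15, was 0.36 with the block. The number of genes called with S100a9 was 20, and ran from 3 with ranks to 293 without the 2 arrays farthest from the median. The cause of these changes was not tested. Animals 3296 and 3351 each have a second array with the suffix R, and the 18S rule left both of these out. The 56 arrays therefore hold no pair of arrays from 1 animal, and no paired analysis was run. Cxcl2, Cxcl5 and Cxcr2 lie below the median brightness on all 56 arrays, and a relation of theirs that misses the threshold is not shown to be absent.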
